A study of Homo sapiens with 3 samples.

Results

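The immediate early genes of the EGR, FOS and JUN families and MYC were followed across cells in which the long noncoding RNA DANCR had been depleted with either of 2 siRNAs. The members were fixed by name: EGR1, EGR2, EGR3, FOS, FOSL1, FOSL2, JUN, JUNB, JUND and MYC, 10 genes among the 19775 genes that the array annotation named singly. Every probe set that the annotation assigned to 1 member alone was taken, which gave 21 of 41091 single-gene probe sets. EGR2 had none assigned to it and was not analysed here, so 9 members were represented.

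UM-UC-3, an established human bladder cancer line, was transfected at 75 nM with DANCR siRNA1, DANCR siRNA2 or a negative control siRNA, and total RNA was taken after 48 h. All 3 cultures therefore received a transfected duplex, and no untransfected cells were analysed. Each condition was hybridised to 1 Affymetrix array. With 1 array per condition there was no replicate check, so each ratio below is the difference between 2 arrays and no test was run. Both siRNA ratios share the single control array.

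Immediate early genes encode transcription factors whose mRNAs are induced within minutes of serum or growth factor signalling, without new protein synthesis, and usually decay soon after. EGR proteins are zinc finger factors. FOS and JUN proteins are basic leucine zipper factors that pair to form AP-1, and MYC pairs with MAX to bind E-boxes in genes of growth and metabolism. In tumour cells FOSL1, FOSL2, JUN and MYC can be expressed continuously, so their mRNA levels are not only a readout of acute stimulation.

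The siRNAs are shown first, since their action separates the conditions. They are given as in the labels, with the 2 bases at the 3′ end, written as T in a run of U, in capitals.
DANCR siRNA1: gcguacuaacuuguagcaaTT
DANCR siRNA2: gagcuagagcagugacaauTT
Control siRNA: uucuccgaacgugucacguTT
On its single probe set DANCR had an intensity of 116 with siRNA1 and 126 with siRNA2, against 671 with the control siRNA, which is 17.3% and 18.8% of the control.

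The next sequences are promoter windows of 3 members, shown because EGR1 and JUND were higher with both siRNAs and FOSL2 was the member that differed most between them. Each window runs from 250 bases before to 50 bases after the annotated start of the gene, 5′ to 3′ on the gene's strand, from RefSeq on GRCh38.p14. They lie at chr5:138465229-138465528 (plus strand) for EGR1, chr19:18281573-18281872 (minus strand) for JUND and chr2:28392608-28392907 (plus strand) for FOSL2. Capitals mark matches to the motifs described next.
EGR1: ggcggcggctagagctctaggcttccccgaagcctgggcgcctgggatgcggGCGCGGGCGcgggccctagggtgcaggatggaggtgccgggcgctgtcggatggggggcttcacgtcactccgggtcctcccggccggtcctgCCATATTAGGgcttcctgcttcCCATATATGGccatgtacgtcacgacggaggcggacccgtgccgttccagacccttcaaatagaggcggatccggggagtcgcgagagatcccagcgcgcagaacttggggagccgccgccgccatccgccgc
JUND: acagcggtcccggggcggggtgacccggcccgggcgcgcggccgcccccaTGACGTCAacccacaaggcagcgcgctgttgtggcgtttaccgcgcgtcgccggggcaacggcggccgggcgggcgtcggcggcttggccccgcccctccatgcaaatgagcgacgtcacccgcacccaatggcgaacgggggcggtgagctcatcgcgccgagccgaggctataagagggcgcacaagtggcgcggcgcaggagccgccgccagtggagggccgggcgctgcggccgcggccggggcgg
FOSL2: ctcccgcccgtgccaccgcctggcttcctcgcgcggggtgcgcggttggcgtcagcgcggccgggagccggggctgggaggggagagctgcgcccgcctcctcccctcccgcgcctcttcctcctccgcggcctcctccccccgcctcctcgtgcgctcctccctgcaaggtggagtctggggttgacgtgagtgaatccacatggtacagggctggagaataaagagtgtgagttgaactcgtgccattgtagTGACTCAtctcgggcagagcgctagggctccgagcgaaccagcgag
The motifs searched, on both strands, were the CArG box bound by serum response factor, the cyclic AMP response element TGACGTCA, the AP-1 element TGANTCA, the EGR site GCGNGGGCG, the E-box CACGTG and the TATA box TATAAA. No 2 matches overlapped in these windows.

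The EGR1 window held 2 CArG boxes, at positions -105 to -96 and -83 to -74 from the start, and 1 EGR site at -198 to -190. Among all 35116 promoter windows of this length, 1.29% held a CArG box and 9.43% an EGR site. The JUND window held 1 cyclic AMP response element at -200 to -193, a motif present in 1.85% of windows. The FOSL2 window held 1 AP-1 element just after the start, at 5 to 11, a motif in 7.71% of windows. The windows of FOS and JUNB each held a TATA box, as did 11.5% of all windows, and the JUN window held no match to any of the 6 motifs. E-boxes, present in 7.26% of windows, were matched in none of these windows. EGR2, which had no probe set, is left out of this description, and its windows held a CArG box, an EGR site and an E-box. A match is a description of the letters and not evidence of binding.

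**Figure D1:**
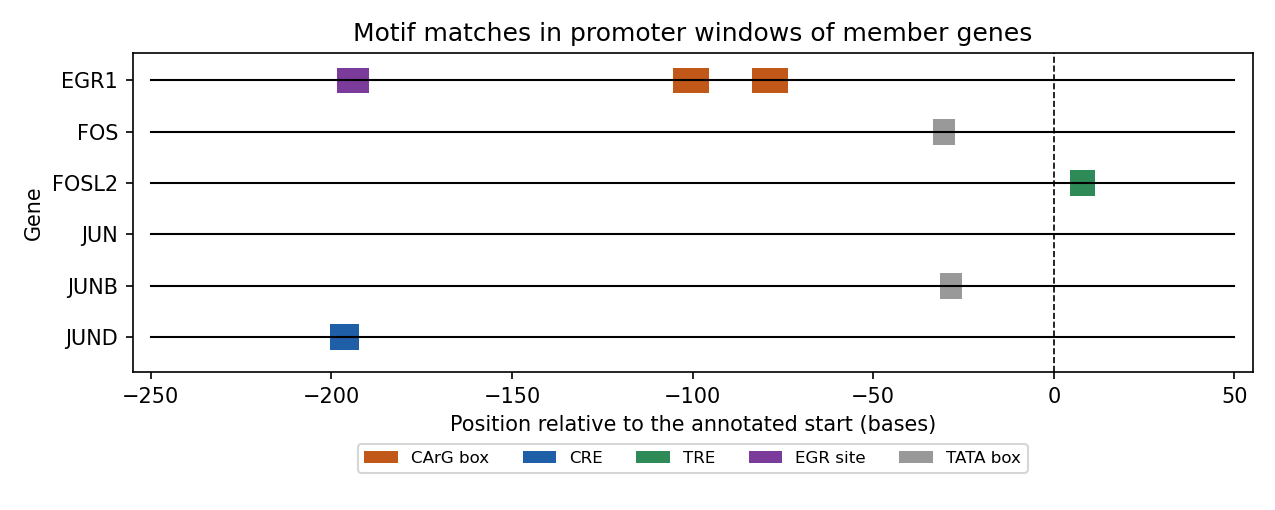
Motif matches in the promoter windows of 6 members, with the distance in bases from the annotated start on the horizontal axis and 1 gene per row. The 2 CArG boxes of EGR1 lie between -105 and -74, and JUN has no match.

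Mean intensities were 96.3 with siRNA1, 96.5 with siRNA2 and 95.3 in the control. The deposited values had already been brought to a common scale, so near-equal means are no check of the arrays. The 3′/5′ intensity ratio of GAPDH was 1.29 with siRNA1, 1.35 with siRNA2 and 1.25 in the control. The 3′/5′ intensity ratio of ACTB, a sign of RNA length, was 11.8 with siRNA1, 14.4 with siRNA2 and 11.9 in the control. It was far above that of GAPDH on all 3 arrays and highest with siRNA2. Its part in the ratios below, and in differences between probe sets of the same gene, was not tested. Of 9 represented urothelial markers, UPK1A, UPK1B, UPK2, UPK3A, KRT20 and KRT5 lay below the floor described next on all 3 arrays. The other 3 were above it on all arrays at low intensity: GATA3 had 20.2 with siRNA1, 35.2 with siRNA2 and 20.2 with the control siRNA, FOXA1 12.5, 12.5 and 15.02, and PPARG 14.9, 14.9 and 12.5. KRT18, a simple epithelial keratin, had intensities of 711, 1022 and 1315 with siRNA1, siRNA2 and the control siRNA. The other keratins read were far dimmer. KRT7 reached at most 28.2, with the control siRNA, KRT8 at most 21.5, and KRT19 lay below the floor on all 3 arrays. The mesenchymal filament VIM had 4412, 4861 and 5322 in the same order of arrays. The other mesenchymal markers were dimmer, with highest intensities of 379 for ZEB1 (control siRNA), 94.5 for CDH2 (siRNA2) and 43.9 for FN1 (siRNA2). Of 10 leukocyte, endothelial and hepatic markers, 4 were above the floor on at least 1 array and the highest intensity among them was 25.0, that of PECAM1 in the control. In RNA from a whole culture, fewer expressing cells and less RNA per cell cannot be told apart.

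Intensities are the deposited values on a linear scale. Any value under the median of the whole table, 10.5, was set to that median, called the floor here, so a ratio in which 1 array lay under it gives a bound. Probe sets and genes are called measured where 1 array or more exceeded it. By this rule 17 of the 21 member probe sets and 8 of the 9 represented members were measured, beside 22909 probe sets and 12436 genes overall. EGR3, a relative of EGR1, was below the floor on every array, at 3.77 with siRNA1, 3.45 with siRNA2 and 3.45 in the control, and has no ratio. The remaining sets below the floor were 3 of the 4 JUND sets.

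**Figure D2:**
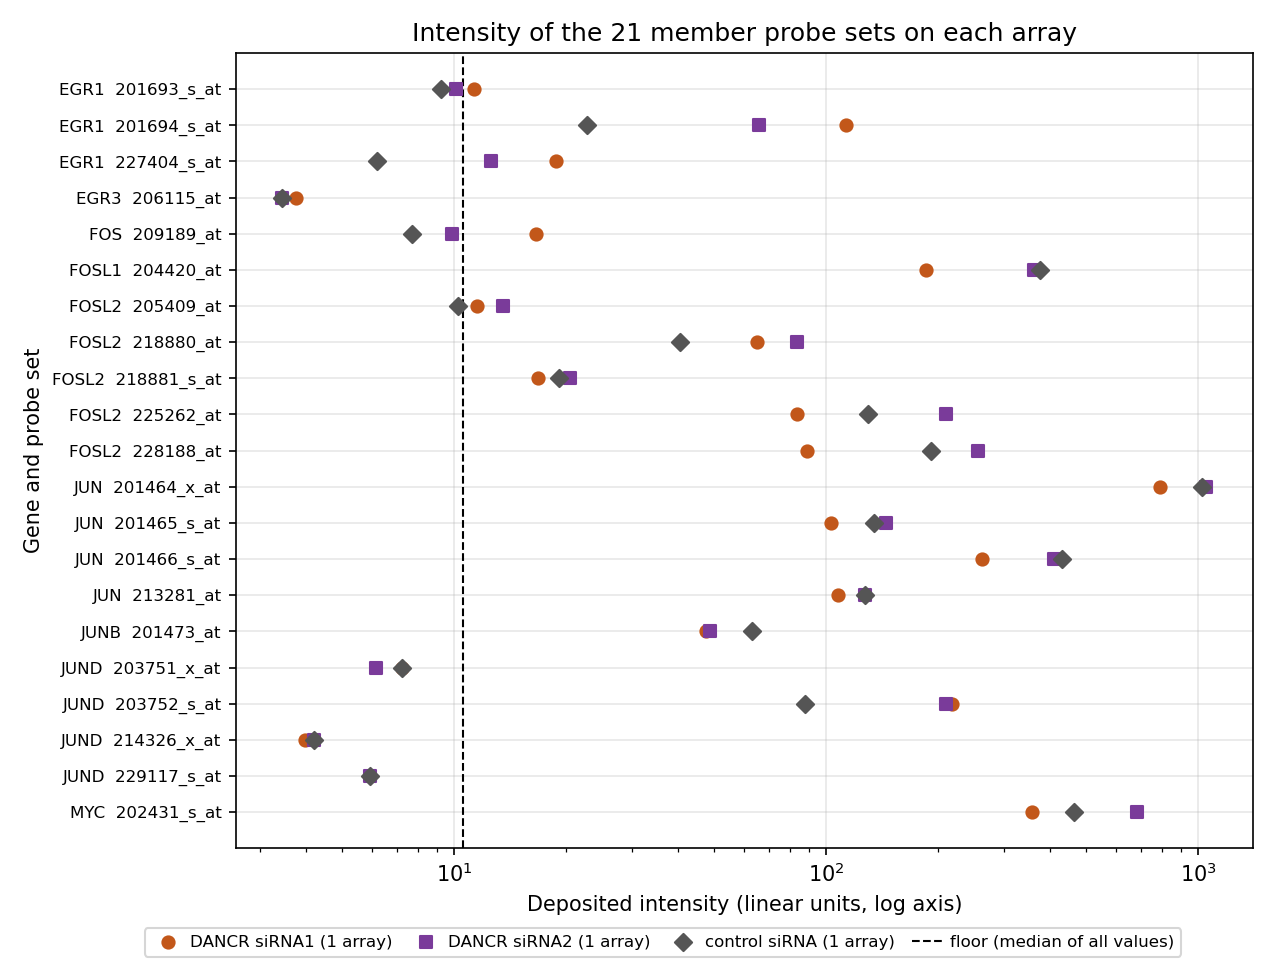
Intensity of each of the 21 member probe sets (rows) on the 3 arrays, on a logarithmic axis, with the floor of 10.5 as a dashed line. The control symbol lies well left of both siRNA symbols for EGR1 201694_s_at and JUND 203752_s_at, while the siRNA1 symbol lies left of the other two for FOSL1 and for FOSL2 228188_at.

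EGR1 and JUND were at least 2-fold higher with each DANCR siRNA than with the control siRNA, and FOSL1 and FOSL2 were at least 2-fold lower with siRNA1 alone, when the probe set of highest mean intensity stood for its gene. With siRNA1 that made 2 of 8 measured members 2-fold higher and 2 lower, where the shares over all measured genes were 1.87% and 1.75%. With siRNA2 it made 2 of 8 higher and 0 lower, where the shares over all measured genes were 2.15% and 1.21%. Counted by probe set, 2 of 17 were 2-fold higher and 2 lower with siRNA1, beside 1.66% and 1.48% of all measured probe sets. With siRNA2, 3 of 17 were higher and 0 lower, beside 1.96% and 1.17%. The members were chosen with earlier results of these data known, so a count above these shares carries no independent weight. Over the 8 members the median log2 ratio was -0.37 for siRNA1 and 0.23 for siRNA2, against 0.00 for each over all measured genes. FOS is among the 8 only because its siRNA1 value cleared the floor. Its siRNA2 ratio of 0 has both sides at the floor and still enters the siRNA2 median.

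**Figure D3:**
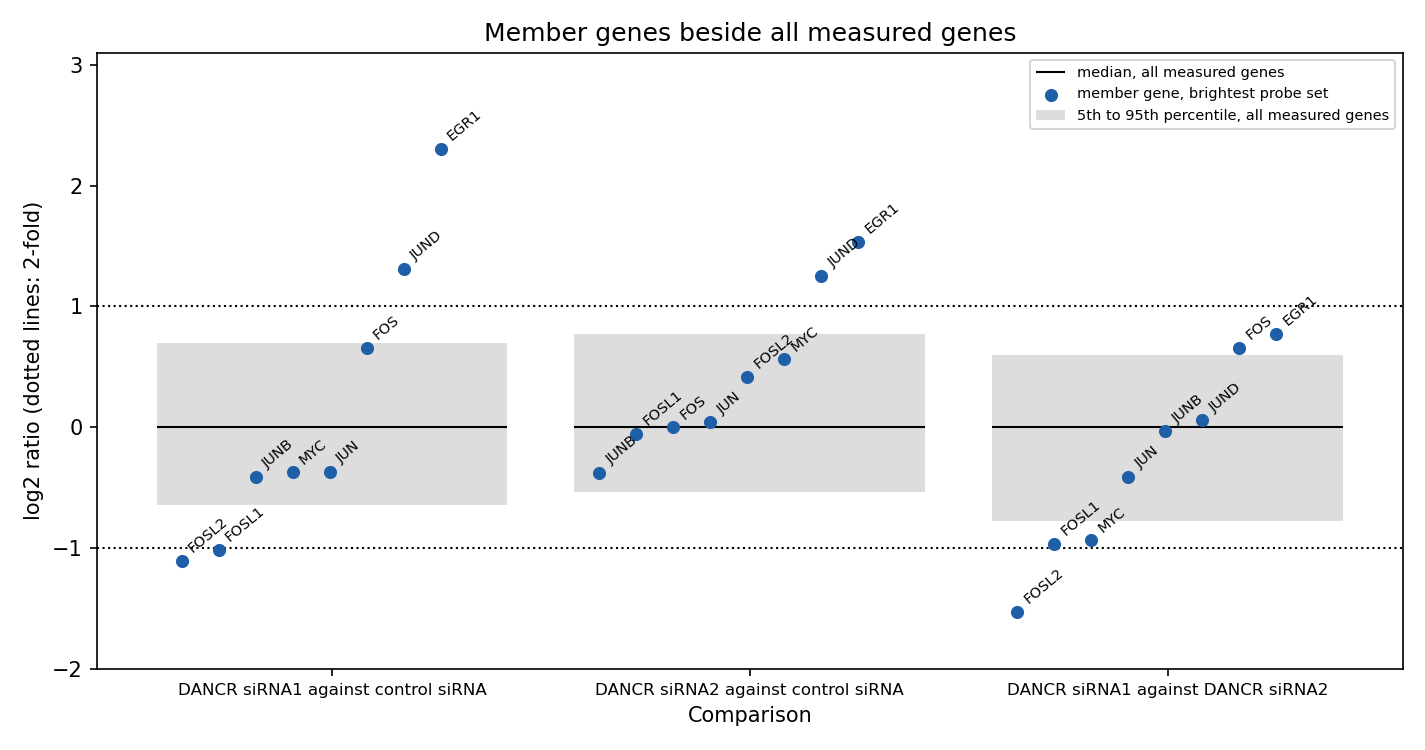
Log2 ratios of the 8 measured members, by their brightest probe set, in each of the 3 comparisons. Grey bars span the 5th to 95th percentile of all 12436 measured genes, and the FOS values are bounds or, with siRNA2, 0 with both sides at the floor. EGR1 and JUND lie above the bar and the 2-fold line with each siRNA, and FOSL1 and FOSL2 lie below the bar with siRNA1.

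EGR1, a zinc finger factor induced by serum through its CArG boxes, had an intensity of 113 with siRNA1 and 66.0 with siRNA2, against 22.8 with the control siRNA, on probe set 201694_s_at. That is 4.95-fold higher with siRNA1 (log2 ratio 2.31) and 2.89-fold higher with siRNA2 (1.53). The control lay below both siRNA arrays and not far above the floor. On the control array the endothelial marker PECAM1, the highest of the leukocyte, endothelial and hepatic markers, read 25.0, above EGR1. Only 0.00873% of measured probe sets, EGR1 included, had a ratio as high with siRNA1, and 0.288% did with siRNA2. With a floor at the 70th percentile the EGR1 log2 ratios were 1.92 with siRNA1 and 1.15 with siRNA2.

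The other EGR1 probe sets were dimmer. Set 227404_s_at had 18.8 with siRNA1 and 12.5 with siRNA2, against 6.22 in the control. Because the control value was below the floor, EGR1 was at least 1.78-fold higher with siRNA1 and at least 1.19-fold higher with siRNA2 on that set. Those bounds depend on the floor: with a floor at the 70th percentile both log2 ratios were 0.00. The siRNA2 value, 12.5, was also that of the leukocyte marker CD3D on every array. The order of arrays on 227404_s_at was that of the brightest set. The third, 201693_s_at, had 11.3, 10.1 and 9.20 in the same order of arrays, so that only the siRNA1 value cleared the floor. All 3 sets carry the _s_at suffix, which Affymetrix gives to sets whose probes can match more than 1 transcript. By the median over its sets EGR1 had ratios of 0.83 and 0.25, short of 2-fold.

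FOS, the founding AP-1 partner and like EGR1 a serum response gene, was at 16.6 with siRNA1 and 9.86 with siRNA2, against 7.69 in the control, on its single probe set 209189_at. Only the siRNA1 value was above the floor, which makes FOS at least 1.58-fold higher with siRNA1 than in the control, while siRNA2 and the control were both at the floor. Without a floor the siRNA1 log2 ratio was 1.11, past 2-fold, on values near or below the array median. It was 0.46 when 16 was added to every value in place of the floor. With a floor at the 70th percentile it was 0.00, so the FOS difference depends on where the floor lies.

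FOSL1, which encodes Fra-1, an AP-1 partner linked to mesenchymal and invasive tumour cells, was at 186 with siRNA1 and 362 with siRNA2, against 376 in the control, on its single probe set 204420_at. It was 2.03-fold lower with siRNA1 (log2 ratio -1.02) and differed by -0.05 with siRNA2. The siRNA1 array stood apart while the other two were close. The call with siRNA1 lies at the 2-fold line: adding 16 to every value in place of the floor gave -0.96.

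FOSL2, which encodes Fra-2, had 5 probe sets that did not move as 1. The brightest, 228188_at, was at 88.5 with siRNA1 and 255 with siRNA2, against 191 in the control, log2 ratios of -1.11 and 0.42. The next, 225262_at, was at 83.5, 209 and 129 on the same arrays, with ratios of -0.63 and 0.69. On both sets siRNA1 was the lowest array and siRNA2 the highest. Set 218880_at instead was at 65.0 with siRNA1 and 83.5 with siRNA2, against 40.3 in the control, higher with each siRNA (0.69 and 1.05). It shares with the others the lead of siRNA2 over siRNA1, but places the control lowest. The dim sets 218881_s_at (16.8, 20.5 and 19.1 with siRNA1, siRNA2 and the control siRNA) and 205409_at (11.5, 13.5 and 10.2) differed by at most 0.36 on the log2 scale. By the median over its probe sets FOSL2 had ratios of -0.18 with siRNA1 and 0.42 with siRNA2, short of 2-fold. All 5 sets were higher with siRNA2 than with siRNA1.

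**Figure D4:**
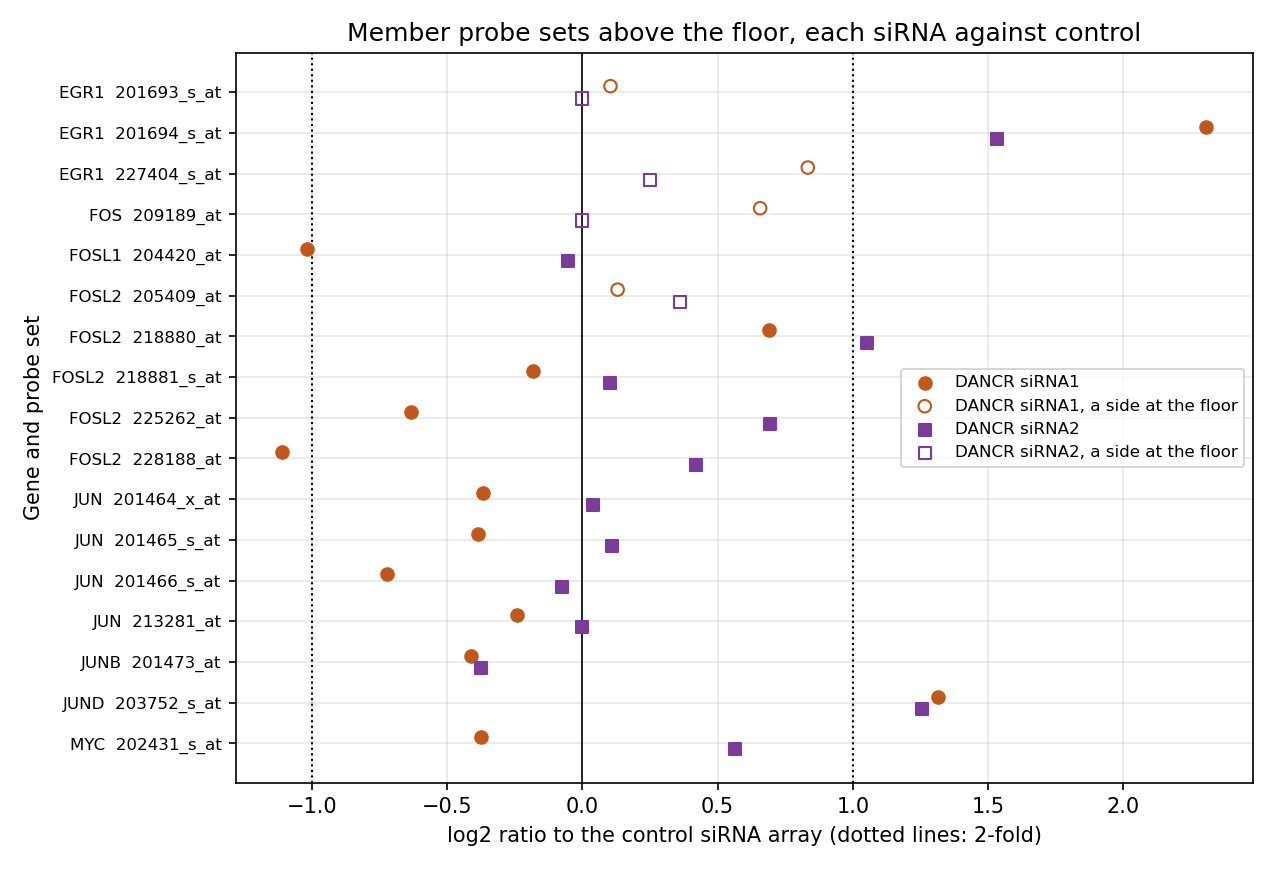
Log2 ratio to the control array of the 17 measured member probe sets with each siRNA, with open symbols where a side lay at the floor and dotted lines at 2-fold. The siRNA1 and siRNA2 symbols lie on opposite sides of 0 for MYC, for 3 of the 5 FOSL2 sets and for 2 of the 4 JUN sets, and on the same side for EGR1 201694_s_at, JUNB and JUND.

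JUN, which encodes c-Jun, the most active JUN partner in AP-1, was bright on all 4 of its probe sets. Set 201464_x_at was at 791 with siRNA1 and 1050.2 with siRNA2, against 1021 in the control. Set 201466_s_at was at 262, 409 and 431 on the same arrays. Set 201465_s_at was at 103, 145 and 134, and 213281_at at 107, 127 and 127, where siRNA2 and the control had the same value. All 4 sets placed siRNA1 lowest, with log2 ratios to the control from -0.72 to -0.24, and none was 2-fold. With siRNA2 the 4 ratios ran from -0.08 to 0.11. The sets share an RNA sample on each array and are not replicates.

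JUNB, which encodes an AP-1 partner that often restrains c-Jun, was at 47.6 with siRNA1 and 48.7 with siRNA2, against 63.2 in the control, on its single probe set 201473_at. The log2 ratios were -0.41 and -0.38, short of 2-fold, and the siRNA arrays were close to each other. With siRNA2 it was the member furthest below the control among the 8 brightest sets.

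JUND, the JUN family member that is usually present in unstimulated cells, was at 218 with siRNA1 and 209 with siRNA2, against 87.6 in the control, on probe set 203752_s_at. It was 2.49-fold higher with siRNA1 (log2 ratio 1.31) and 2.39-fold higher with siRNA2 (1.26). Both siRNA arrays were well above the control and close to each other. Ratios at least as high were held by 0.515% of measured probe sets with siRNA1 and 0.838% with siRNA2. The other 3 JUND sets gave no ratio: 203751_x_at was at 7.23, 6.16 and 7.23, 214326_x_at at 3.98, 4.20 and 4.20, and 229117_s_at at 5.94 on all 3 arrays. The JUND difference therefore rests on 1 probe set of 4. Every EGR1 and JUND set has the suffix _s_at or _x_at, so leaving such sets out left 0 members 2-fold higher with either siRNA.

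MYC, the growth factor-responsive driver of ribosome and nucleotide synthesis genes, was at 357 with siRNA1 and 684 with siRNA2, against 463 in the control, on its single probe set 202431_s_at. It was 1.30-fold lower with siRNA1 (log2 ratio -0.37) and 1.48-fold higher with siRNA2 (0.56). The control lay between the siRNA arrays, and neither ratio reached 2-fold.

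Set directly against each other, the siRNA arrays differed more in FOSL1, FOSL2 and MYC than in JUN, JUNB or JUND on the brightest sets. With siRNA1 against siRNA2, 0 of 8 measured members were 2-fold higher and 1 was 2-fold lower, beside 1.51% and 2.4% of all measured genes. By probe set 0 of 17 were higher and 2 lower, beside 1.41% and 2.09%. The 2 sets were those of FOSL2, 228188_at (log2 ratio -1.53) and 225262_at (-1.32). FOSL1 at -0.97 and MYC at -0.94 were lower with siRNA1 by just under 2-fold. EGR1 was 0.77 higher with siRNA1 on its brightest set. JUND differed by 0.06 and JUNB by -0.03. DANCR itself differed by -0.11 between the same arrays.

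The nearest patterns to the members that were 2-fold from the control with both siRNAs were sought among all measured genes, by Euclidean distance over the 2 log2 ratios. For EGR1 the nearest were ZNF227 (distance 0.45), KIAA1217 (0.47) and MESD (0.54). For JUND they were TOMM22 (0.01), TMF1 (0.05) and SSU72 (0.07). The pattern rests on 3 arrays and a shared control, so it is a description only.

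Related gene lists were read by the same rule, with the brightest probe set for each gene. Other AP-1 and Maf leucine zipper factors, including FOSB and ATF3, had 8 of 12 genes measured, and 0 were 2-fold from the control with either siRNA. Their medians were -0.06 with siRNA1 and 0.00 with siRNA2. Over all measured genes 1.87% were 2-fold higher and 1.75% lower with siRNA1, and 2.15% and 1.21% with siRNA2. A count of 0 in 8 genes is near those shares. JDP2, a repressor that dimerises with JUN proteins, had a ratio of 0.75 with siRNA1 and 0.13 with siRNA2, and ATF2, another JUN partner, had -0.52 and 0.24. MAFF had -0.38 and -0.15 and BATF3 -0.14 and -0.18, and none of the 4 reached 2-fold.

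Other immediate early genes had a median of -0.14 for siRNA1 and of -0.03 for siRNA2 over 29 of 31 genes measured. With siRNA1, 1 was 2-fold higher and 2 lower, and with siRNA2, 5 were higher and 0 lower. The shares over all measured genes were 1.87% higher and 1.75% lower with siRNA1, and 2.15% and 1.21% with siRNA2. KLF4, a zinc finger factor, was at 248 with siRNA1 and 235 with siRNA2, against 94.7 in the control, ratios of 1.39 and 1.31, though its dimmer set gave 0.30 and 0.36. Its order of arrays was that of JUND. CCN1, a matricellular protein and classic serum response gene, was at 341 with siRNA1 and 1233 with siRNA2, against 477 in the control. Its ratios were -0.48 and 1.37, and its second set gave -0.64 and 1.17. CCN2, its relative, had -0.26 and 1.01. Both lay below the control with siRNA1 and above it with siRNA2, as MYC did, and both differed more from the control than MYC with siRNA2. SIK1, a kinase of the AMPK family, had -0.36 and 1.46 on one set and 0.00 and -0.04 on the other. NR4A3, an orphan nuclear receptor, had 0.55 and 1.00, and SGK1, a serum-induced kinase, 0.85 and 1.00, the first just past 2-fold with siRNA2 and the second just short. ZFP36L2, which promotes decay of AU-rich mRNAs, was 2.23-fold lower with siRNA1 (-1.16) and had -0.03 with siRNA2, and its second measured set gave -0.99 and -0.41. IER3, a stress-responsive survival gene, had -1.06 and -0.69.

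The kinases and factors upstream of these genes had medians of -0.01 and 0.04 over 15 of 17 genes measured. ELK4, an ETS factor that binds CArG elements with serum response factor, had a ratio of 0.23 with siRNA1 and 1.25 with siRNA2, and its dimmer measured sets gave 0.15 and 0.76, 0.16 and 0.22, and -0.20 and 0.00. It was the single gene of the 15 past 2-fold, where 2.15% of all measured genes were 2-fold higher with siRNA2. In a list of this size a single gene is near that share. MAP2K1, which encodes the kinase MEK1, was at 369 with siRNA1 and 297 with siRNA2, against 583 in the control, ratios of -0.66 and -0.97. RPS6KA3, a kinase downstream of ERK, had 0.44 and 0.36 and MRTFA, a coactivator of serum response factor, 0.36 and 0.20.

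Downstream genes divided by list. AP-1 targets had a median of -0.80 for siRNA1 and of -0.59 for siRNA2 over 12 of 21 genes measured, with 10 and 11 lower and 5 and 4 at least 2-fold lower. Over all measured genes 39.5% and 36.2% were lower, and 1.75% and 1.21% at least 2-fold lower. IL11, CCND1 and PLAU in this list were picked by the study from these very arrays, so the direction of the list carries no independent weight. The rest of the list was also chosen with earlier results of these data known, so it carries none either. Without IL11, CCND1 and PLAU the medians of the other 9 were -0.73 and -0.26, and 2 were 2-fold lower with siRNA1 and 1 with siRNA2. Those were MMP9, a secreted gelatinase, at 23.6 with siRNA1 and 34.8 with siRNA2, against 167 in the control, and with siRNA1 also ITGA2, a collagen receptor subunit, at -1.16. The second ITGA2 set gave -0.26 with each siRNA. IL11 was at least 9.64-fold lower with siRNA1 and had -1.95 with siRNA2, and its second set gave -0.47 and -0.42. PLAU had -2.50 and -1.07, and CCND1 -1.28 and -3.44. These genes answer to other factors besides AP-1, and their link to the members was not tested.

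EGR co-repressors and EGR1 targets had medians of -0.01 and 0.00 over 9 of 13 genes measured. On their brightest sets 0 were 2-fold from the control with either siRNA. Over all measured genes at most 2.15% were 2-fold from the control in 1 direction, so 0 of 9 is near the shares. CD44, a hyaluronan receptor, had -0.62 and -0.04, and PDGFA, a platelet-derived growth factor chain, -0.01 and -0.54. VEGFA, an angiogenic growth factor, had 0.42 and 0.06. FN1, fibronectin, had 0.16 and 0.70 on its brightest set. Its dimmer sets gave 0.30 and 1.43 (211719_x_at), 0.08 and 1.05 (216442_x_at), and -0.34 and 0.40 (212464_s_at). FN1 thus passed 2-fold with siRNA2 on some dimmer sets. The MYC network of MAX partners had medians of 0.01 and 0.11 over 12 of 14 measured, and MNT, which competes with MYC for MAX, had 0.41 and 0.84. MXD1 had 0.26 with each siRNA, MXD3 -0.16 and -0.35, and FBXW7, which targets MYC for degradation, 0.27 and 0.15.

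MYC targets had a median of -0.01 for siRNA1 and of 0.00 for siRNA2 over 19 of 22 genes measured. NOLC1, a nucleolar phosphoprotein, was at 899 with siRNA1 and 1970 with siRNA2, against 903 in the control, a ratio of 1.13 with siRNA2, and its other sets gave 1.61 and 1.21 with siRNA2. HSPD1, the mitochondrial chaperonin, had 0.41 and -0.97, CAD, an enzyme of pyrimidine synthesis, -0.93 and 0.02, and POLR1B, an RNA polymerase I subunit, 0.56 and -0.09. The named targets did not share 1 order of arrays, and NOLC1 was the single one past 2-fold from the control on its brightest set. That is 1 of 19, beside 2.15% of all measured genes 2-fold higher with siRNA2, and is near that share in a list of this size.

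**Figure D5:**
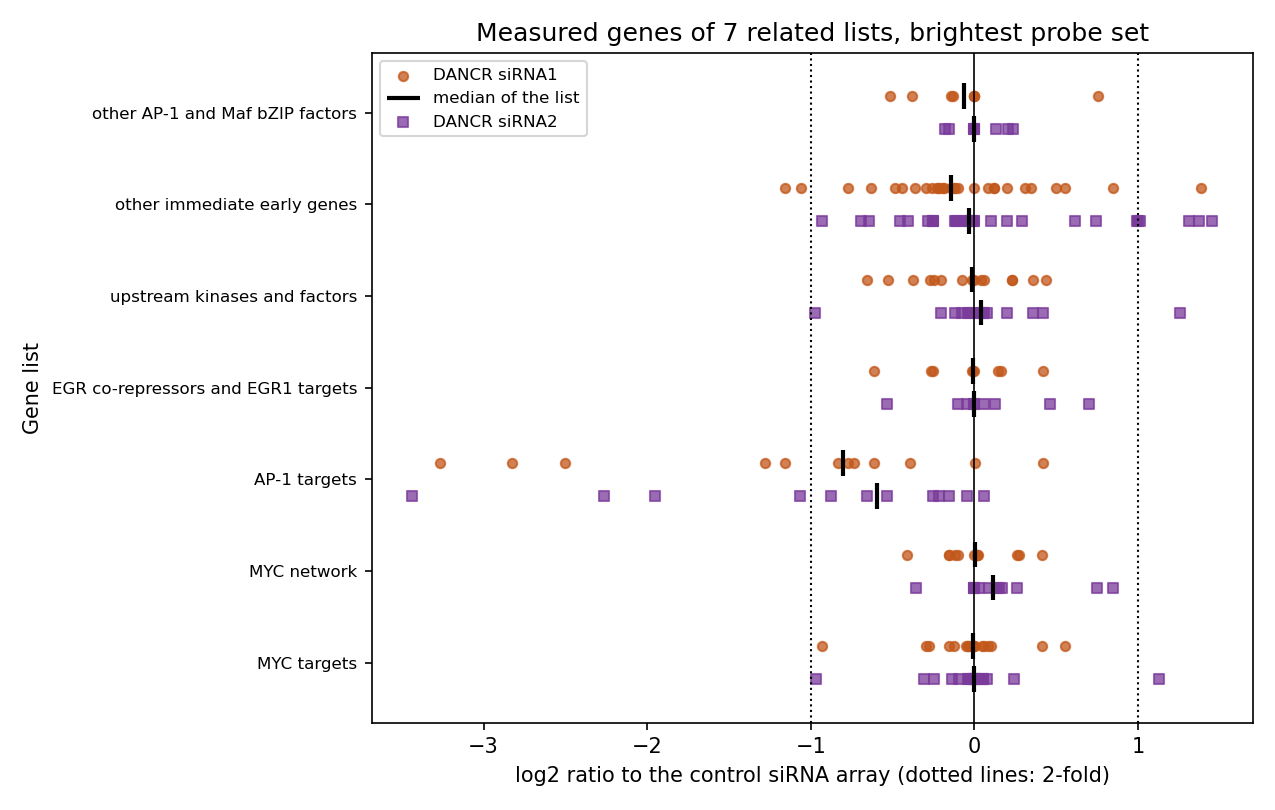
Log2 ratios to the control array of all measured genes in the 7 related lists, siRNA1 above siRNA2 in each row, with the list's median as a black tick. The AP-1 targets reach furthest to the left, with medians of -0.80 and -0.59, and the medians of the other lists lie between -0.14 and 0.11.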

How the data were processed

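Expression was measured on 3 Affymetrix arrays, 1 per siRNA. For every probe set the deposited table gives 1 linear intensity per array. They had been brought to a common scale by a method not given in the sources used here, and the submitters' processing notes name GCOS 1.4. In 32.1% of the 54675 probe sets the value was equal on all 3 arrays (relative tolerance 1e-09), so many ratios are exactly 0. Detection calls were not used here, and the number of arrays limits the precision.

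Probe sets naming a single gene were kept, with symbols updated through RefSeq. Values below the 50th percentile were raised to it before log2 ratios were taken, and a ratio of 2-fold counted as called. The members and lists were chosen with earlier results of these data known. The genes named were all members and DANCR, and from each list those 2-fold with either siRNA and the 4 with the largest mean ratio. For members 2-fold with both siRNAs the 3 nearest patterns were named. The code was tested on simulated data. As alternatives, arrays were quantile normalised or centred on their medians, the floor was moved to the 30th or 70th percentile, dropped, or replaced by a pseudocount of 16, the threshold was set to 1.5-fold or 3-fold, all probe sets of a gene were reduced to their median ratio, and _s_at and _x_at sets were excluded. Python 3.11.15, numpy 2.4.6, pandas 2.3.3 and matplotlib 3.10.9 were used. Promoter windows were matched by symbol for 7 of the 10 members.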

Additional observations from a re-analysis of the deposited data

Results flagged for a closer look

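For 6 member probe sets above the floor on all 3 arrays, the siRNA1 value lay below the control and the siRNA2 value above it. The rule asked only for opposite signs. The share of all measured probe sets with this pattern was not computed, so the count is a description only. With siRNA2 the log2 ratio was just 0.04 for JUN 201464_x_at, 0.10 for FOSL2 218881_s_at and 0.11 for JUN 201465_s_at. For the others it ran from 0.42 to 0.69. The difference between the siRNA arrays, siRNA1 minus siRNA2 on the log2 scale, was -1.53 for FOSL2 228188_at, -1.32 for FOSL2 225262_at and -0.29 for FOSL2 218881_s_at. It was -0.94 for MYC 202431_s_at, -0.50 for JUN 201465_s_at and -0.41 for JUN 201464_x_at. These differences were not tested, since each siRNA had 1 array.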

How the results depend on the processing

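Each condition had 1 array, so 2-fold was the only yardstick. Of 378 recomputed ratios of member probe sets, 0 that had reached 2-fold changed sign, 4 fell short of 2-fold and 6 newly reached it. Most of the 378 were short of 2-fold from the start, sets below the floor among them, and could not count as reversed or lost. Median-centring and quantile normalisation kept every count of members within 1.5 times. The counts below are higher or lower with siRNA1 or siRNA2 against the control unless both siRNAs are compared. At 1.5-fold, 5 probe sets were higher and 4 lower with siRNA1. Between siRNA1 and siRNA2, 2 genes and 2 sets were higher and 3 genes and 5 sets lower. Shares over all measured genes and probe sets were taken at 2-fold only, so the counts at 1.5-fold and 3-fold have none beside them. With siRNA1 the 5th and 95th percentiles of all measured probe sets were log2 ratios of -0.61 and 0.67. At 3-fold, 1 gene and 1 set were higher with siRNA1, and 0 genes and 0 sets remained in the lower counts, in the counts with siRNA2 and between the siRNAs. The median over probe sets left 1 gene higher and 1 lower with siRNA1, 1 higher with siRNA2 and 0 lower between the siRNAs. Without _s_at and _x_at sets, 0 genes and 0 sets were higher with siRNA1, and 0 genes and 1 set with siRNA2, because EGR1 and JUND had no other sets. With a floor at the 30th percentile or none, 4 sets were higher with siRNA1, and with a pseudocount of 16, 0 genes and 0 sets were lower with siRNA1, where FOSL1 had -0.96 and FOSL2 -0.98. The members' median with siRNA2, 0.23, became 0.39 and 0.42 with floors at the 30th and 70th percentile, 0.36 without a floor, 0.13 with the pseudocount and 0.00 without _s_at and _x_at sets. The median between the siRNAs, -0.22, became -0.41 with the 70th percentile floor and -0.035 without a floor and -0.026 with the pseudocount. Several of these medians were taken over other members. The 70th percentile floor left out FOS, and dropping the floor or using the pseudocount brought in EGR3. Leaving out _s_at and _x_at sets removed EGR1, JUND and MYC. Those shifts therefore mix a change of members with a change of processing. Leaving IL11, CCND1 and PLAU out of the AP-1 targets was chosen after seeing the data. No paired analysis was possible because each condition had 1 array.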
